A study of Mus musculus with 12 samples.

Results

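The Nduf genes encode the nuclear part of respiratory complex I, NADH:ubiquinone oxidoreductase, together with factors that assemble it. On these arrays 44 genes with a symbol that begins with Nduf were read by at least 1 probe set assigned to a single gene, of 18194 such genes in all. For each, the probe set with the highest mean over the arrays was used, and the others served as a check. By their known place in the enzyme, 34 of the 44 are subunits, 8 are assembly factors, and 2 are Ndufa4, which is now counted with complex IV, and its paralog Ndufa4l2. A further 8 Nduf genes or pseudogenes, Ndufs6 and Ndufa11 among them, shared their probe sets with another gene and entered no count.

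The arrays were made from gastrocnemius, the main calf muscle, of 12 male mice, 1 array per mouse, at generation 37 of lines bred for high voluntary wheel running, aged 79 to 86 days. The 6 mini-muscle mice came from line 3 and have the mini-muscle phenotype, in which the hindlimb muscles are small by inheritance, and the 6 regular-muscle mice came from line 8. Both groups therefore belong to selected lines, and no unselected line was on the arrays. RNA of both limbs was combined for each mini-muscle mouse and RNA of 1 limb was used for each regular-muscle mouse, so phenotype, line and limb pooling cannot be told apart. Values are log2 of the deposited MAS5 intensity, each difference is mini-muscle minus regular-muscle, and n = 6 arrays per group throughout.

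Complex I takes electrons from NADH in the mitochondrial matrix, passes them along a flavin and a chain of iron-sulphur clusters to ubiquinone, and pumps protons across the inner membrane. Its peripheral arm holds an NADH-oxidising module (N module) and a ubiquinone-reducing module (Q module), and its membrane arm has a proximal and a distal pumping part. The catalytic core is split between nuclear and mitochondrial genes, and accessory subunits surround it. Assembly factors join the modules and leave the finished enzyme. Oxidative fibres of skeletal muscle are richer in mitochondria, and so in this complex, than fast glycolytic fibres.

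Most complex I transcripts differed little between the muscles. At the probe sets used, 3 assembly factors fell and the NADH-binding subunit Ndufv1 rose. The fall of Ndufaf4, 1 of these factors, did not pass when its probe sets were averaged. Of the 44 genes, 43 lay above the dim limit, a mean of log2 8.56 below which a gene was left out of the test. A gene was called when its adjusted p was under 0.05. Of the 43, 3 rose, 6 fell and 34 did not pass. The share called was 20.9%, against 26.7% of all 9097 genes tested. After quantile normalization it was 27.9% against 26.3%, and among the 6065 brightest genes it was 19% of 42 members against 35.3%. By direction, 6.98% of the members rose against 14.9% of all genes, and 14.0% fell against 11.8%. The mini-muscle arrays lay above every regular-muscle array for 1 member (2.33%, against 6.86% of all genes) and below every one for 3 members (6.98%, against 6.11%). At an unadjusted p under 0.05 there were 12 members. The share of all genes at that threshold was not computed, but it is at least the 26.7% that passed after adjustment. The median difference of the members was -0.02, and that of all genes tested was 0.03.

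The small differences were also measured with small error. The median SE was 0.08 over the members and 0.14 over all genes tested. For 38 of the 43 members (88.4%) the 95% interval of the difference lay within a 1.5-fold change in either direction, which was so for 56.5% of all genes tested. The 5 others were Ndufaf4, Ndufaf5, Ndufaf6, Ndufa4l2 and Ndufv3. The median of the absolute differences was 0.11 for the members and 0.22 for all genes. The subunits were bright, while all genes tested reached down to the dim limit of 8.56. Apart from Ndufb1 (10.46), the measured subunits had means of 14.17 (Ndufs4) to 16.16 (Ndufa13). The members were not compared with genes of like brightness, so whether the small errors and differences are particular to complex I was not tested.

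**Figure D1:**
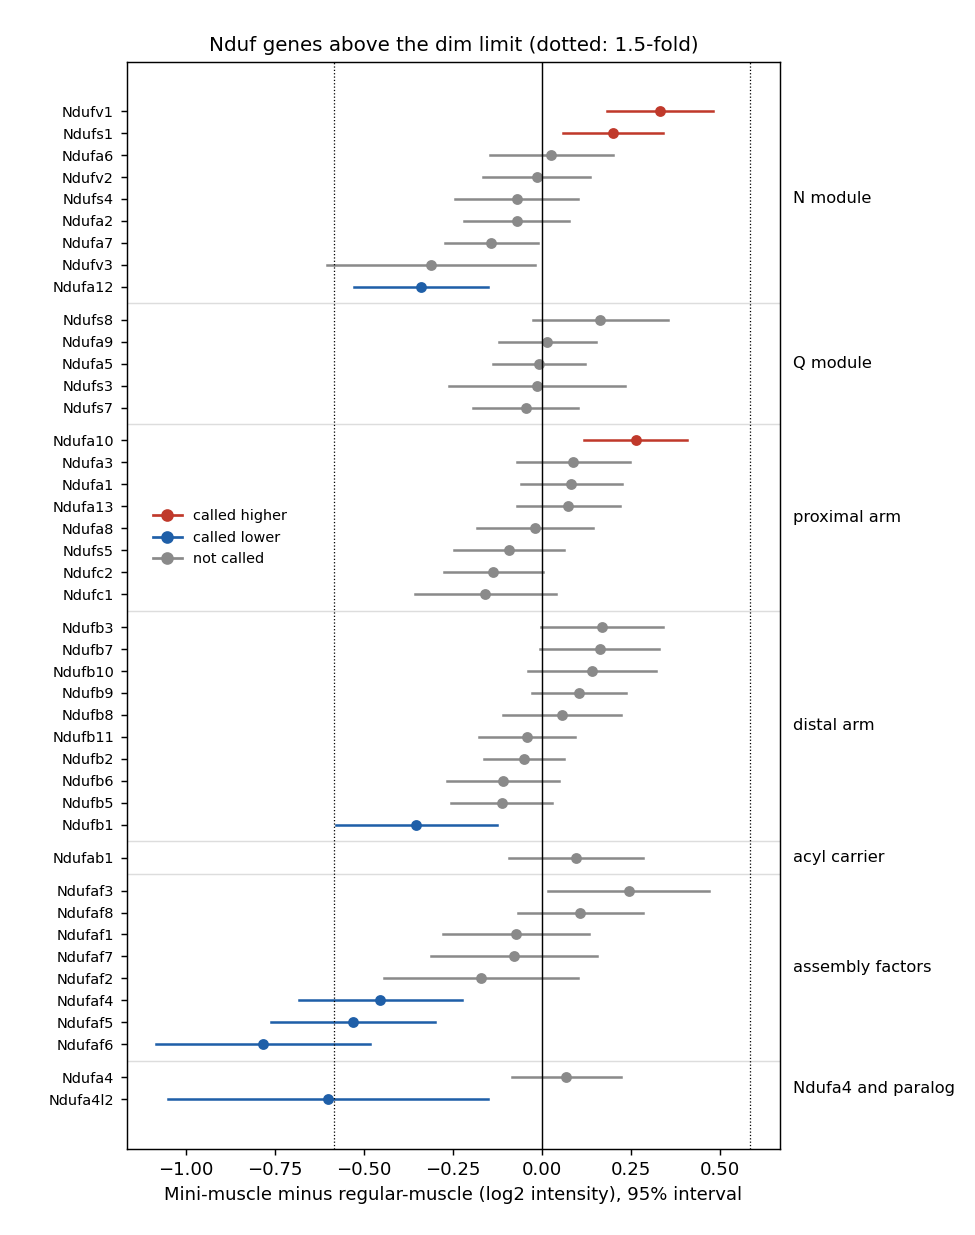
Difference between mini-muscle and regular-muscle arrays (log2 intensity, horizontal axis) for the 43 Nduf genes above the dim limit, grouped by place in complex I, with 95% intervals. Dotted lines mark a 1.5-fold change; the assembly factors Ndufaf4, Ndufaf5 and Ndufaf6 and the paralog Ndufa4l2 lie farthest to the left, and Ndufv1 lies farthest to the right.

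In the N module, which holds the NADH site, the flavin and most of the iron-sulphur clusters, 2 of 9 measured subunits rose and 1 fell. Over all genes tested, 14.9% rose and 11.8% fell. Ndufv1, the subunit that binds NADH and the flavin, had a lowest, median and highest value of 14.82, 14.94 and 15.14 on the mini-muscle arrays and of 14.51, 14.62 and 14.77 on the regular-muscle arrays. The groups did not overlap, and the rise was 1.26-fold (log2 0.33, SE 0.07, adjusted p = 0.0017). The 3 probe sets of Ndufv1 gave 0.33, 0.55 and 0.43, so the value used was the smallest of them.

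Ndufs1, the largest subunit of the peripheral arm, carries iron-sulphur clusters next to Ndufv1. It was at 14.36, 14.42 and 14.56 (lowest, median and highest) in mini-muscle and at 14.12, 14.25 and 14.37 in regular muscle. The groups overlapped only through mini-muscle replicate 6 and regular-muscle replicate 4. It rose by 0.20 (SE 0.07, adjusted p = 0.033). It did not pass after median centring of the arrays (adjusted p = 0.25) or in 6 of 12 cases with 1 array left out, namely mini-muscle replicate 1 or 4 or regular-muscle replicate 1, 2, 3 or 6 (highest adjusted p = 0.078).

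Ndufa12, an accessory subunit that takes the place of the assembly factor Ndufaf2 as the N module is attached, moved the other way. Its lowest, median and highest values were 15.14, 15.25 and 15.57 in mini-muscle and 15.48, 15.67 and 15.88 in regular muscle. Mini-muscle replicates 3 and 6 reached into the regular-muscle range and the other 4 lay below it. The fall was 0.34 (SE 0.09, adjusted p = 0.0081), and its other 2 bright probe sets gave -0.27 and -0.29. After median centring of the arrays Ndufa12 differed by -0.33 and did not pass (adjusted p = 0.089). A probe set of Ndufa12 below the limit, at a mean of 6.60, gave 1.04 with an SE of 0.80. Ndufaf2 itself did not pass (-0.17, SE 0.13, adjusted p = 0.37).

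The remaining N module subunits did not pass. Ndufv2, which carries an iron-sulphur cluster beside Ndufv1, differed by -0.01 (95% interval -0.17 to 0.14), so a rise as large as that of Ndufv1 lies outside its interval. Ndufv3, a small subunit attached to this flavoprotein part, varied widely within both groups, with 14.61, 14.86 and 15.18 in mini-muscle and 14.69, 15.25 and 15.58 in regular muscle. It differed by -0.31 (SE 0.14, adjusted p = 0.11), and it passed without regular-muscle replicate 1 (-0.41, adjusted p = 0.029) or replicate 3 (-0.39, adjusted p = 0.045). Ndufa7, Ndufa2 and Ndufs4 differed by -0.14, -0.07 and -0.07 and Ndufa6 by 0.03.

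**Figure D2:**
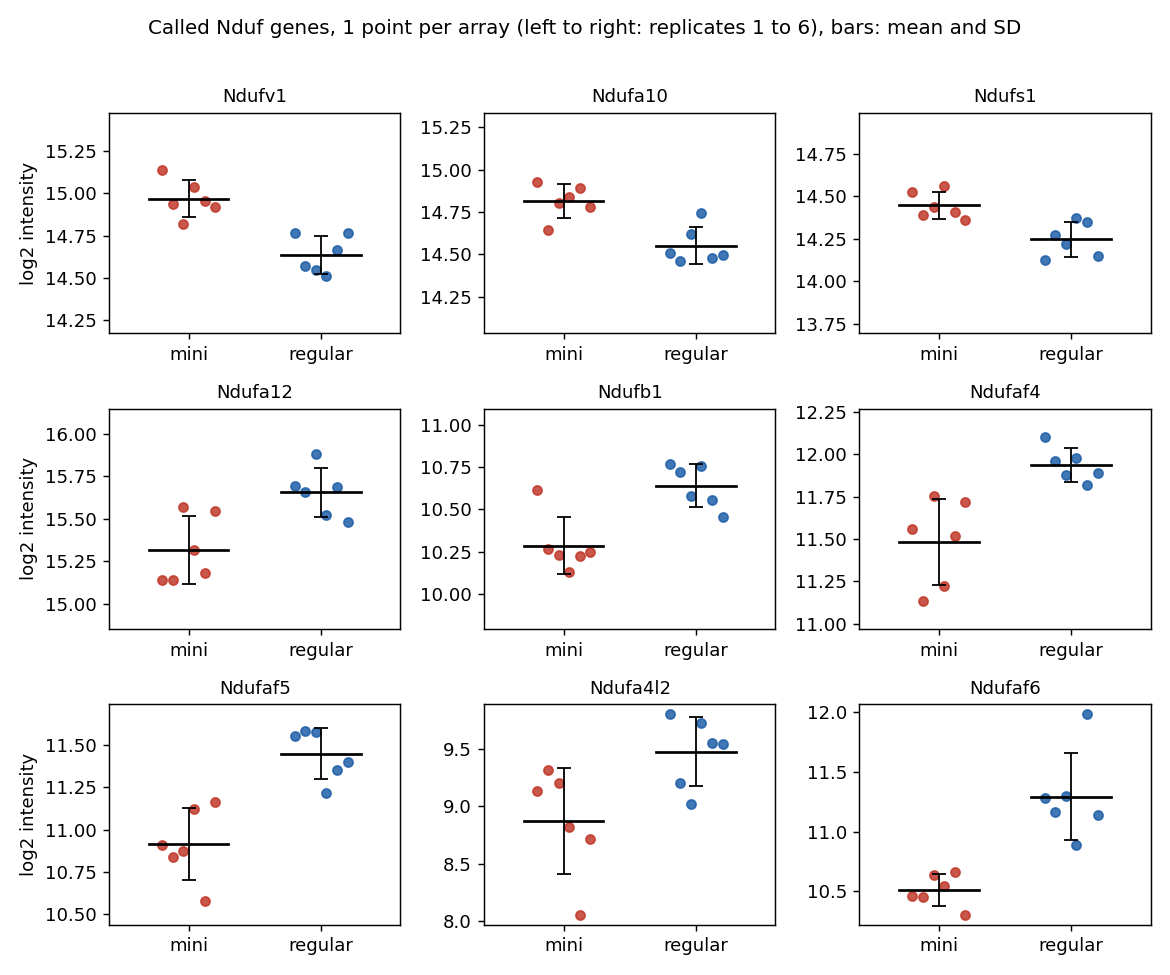
Log2 intensity of the 9 called Nduf genes on each array (points, replicates 1 to 6 from left to right), with group means and SD; the vertical axes differ in range between panels. The groups are apart for Ndufv1, Ndufaf4, Ndufaf5 and Ndufaf6 and overlap for Ndufs1, Ndufa10, Ndufa12, Ndufb1 and Ndufa4l2.

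In the Q module, where electrons reach ubiquinone, 0 of 5 measured subunits were called with limma. At the probe sets used, 0 had an unadjusted p under 0.05. Of its core subunits, which carry the last iron-sulphur clusters and part of the quinone site, Ndufs7 differed by -0.05 (95% interval -0.20 to 0.10) and Ndufs8 by 0.16 (-0.03 to 0.35). Ndufs3 was at 15.04 to 15.34 in mini-muscle. In regular muscle, 5 arrays lay at 15.32 to 15.39 and replicate 1 at 14.55. Ndufs3 differed by -0.01 over all arrays (adjusted p = 0.95) and by -0.15 without that replicate (adjusted p = 0.11). The accessory subunits Ndufa5 and Ndufa9 differed by -0.01 and 0.01.

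Ndufs8 and Ndufv1 lie on chromosome 19 with 94.7 kb between them in the RefSeq annotation (GRCm38.p6), the closest pair of members. Ndufv1 was called and Ndufs8 was not, and whether their differences differ was not tested. The 6 probe sets of Ndufs8 gave -0.19 to 0.22, with 5 above 0 and the lowest at the dimmest, with a mean of 9.65. At means of 15.03 and 14.88, 2 others gave 0.20 (95% interval 0.03 to 0.37) and 0.22 (0.04 to 0.40). Neither passed with limma (adjusted p = 0.17 and 0.13 over all probe sets). The 44 genes lie on 18 chromosomes. Ndufaf8, the only member on chromosome 11, did not pass.

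In the membrane arm, 1 of 8 measured subunits of the proximal part rose and 1 of 10 of the distal part fell. The shares of all genes tested were 14.9% higher and 11.8% lower. Ndufa10, an accessory subunit on the matrix side of the proximal part, was at 14.65, 14.82 and 14.93 (lowest, median and highest) in mini-muscle and at 14.46, 14.50 and 14.75 in regular muscle. Of the mini-muscle arrays, only replicate 2 lay below the highest regular-muscle array, replicate 4. Ndufa10 rose by 0.26 (SE 0.07, adjusted p = 0.0080), and its dimmer second probe set gave 0.34 without passing. After median centring of the arrays the difference was 0.27 and did not pass (adjusted p = 0.12).

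Ndufb1, a small membrane subunit of the distal part, was at 10.13, 10.24 and 10.61 in mini-muscle and at 10.46, 10.65 and 10.77 in regular muscle. Mini-muscle replicate 1 was the highest of its group, and the other 5 mini-muscle arrays lay below all regular-muscle arrays. The fall was 0.35 (SE 0.11, adjusted p = 0.020), read by 1 probe set. It was not called after median centring (adjusted p = 0.084).

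The other membrane arm subunits above the dim limit ranged from -0.16 for Ndufc1 to 0.17 for Ndufb3. Ndufab1, the mitochondrial acyl carrier protein that sits in both arms, differed by 0.09 (95% interval -0.09 to 0.28). Ndufb3, Ndufb7 and Ndufb9 differed by 0.17, 0.16 and 0.10 as deposited and were not called, but were called after quantile normalization at 0.23, 0.19 and 0.14 (adjusted p = 0.016, 0.035 and 0.027). Ndufb4 was below the dim limit at its only single-gene probe set, with a mean of 6.94. Its difference there was 0.26 with an SE of 0.62. A pair of bright probe sets shared by Ndufb4, Ndufb4b and Ndufb4c, with means of 15.19 and 14.89, gave -0.24 and -0.35, and these cannot be assigned to one gene.

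Over all 33 measured subunits of complex I, 3 rose, 2 fell and 28 did not pass, with a median difference of -0.01. Among the 6 measured nuclear-encoded core subunits 2 rose and 0 fell (median 0.07), and 2 had an unadjusted p under 0.05. The 2 were Ndufv1 and Ndufs1, and the call of Ndufs1 was lost in 6 of 12 cases with 1 array left out. Among the 27 accessory subunits 1 rose and 2 fell (median -0.02). For all genes tested the shares were 14.9% and 11.8%, and the difference between core and accessory subunits was not tested.

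Among the genes of complex I, the largest decreases were in assembly factors. Of 8 measured, 3 fell and 0 rose, with a median difference of -0.13, while 2 of the 33 subunits fell. The lists are small, and the difference between them was not tested. For the 3 factors that fell, the mini-muscle arrays lay below every regular-muscle array at the probe sets used. Over all genes tested, 11.8% fell and 6.11% lay lower without overlap.

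Ndufaf6, a mitochondrial factor needed early in assembly of the membrane arm, was at 10.30, 10.50 and 10.66 in mini-muscle and at 10.89, 11.22 and 11.98 in regular muscle. It was 1.72-fold lower (log2 -0.78, SE 0.14, adjusted p = 4.6e-04). Regular-muscle replicate 5 stood above the rest of its group, and without it the difference was -0.65 with the call kept. Ndufaf6 had the largest difference of all 43 members and was read by 1 probe set.

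Ndufaf5, an enzyme that modifies the Q module subunit Ndufs7 during assembly, was at 10.58, 10.89 and 11.16 in mini-muscle and at 11.22, 11.48 and 11.58 in regular muscle. It was 1.45-fold lower (log2 -0.53, SE 0.11, adjusted p = 0.0014), also from 1 probe set. Its partner Ndufaf8 differed by 0.11 (95% interval -0.07 to 0.28), and Ndufs7 did not pass, as given above.

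Ndufaf4, which acts together with Ndufaf3 on the Q module, was at 11.14, 11.54 and 11.75 in mini-muscle and at 11.82, 11.93 and 12.10 in regular muscle. It fell by 0.45 (SE 0.11, adjusted p = 0.0043). Its second probe set had nearly the same mean level (11.70 against 11.71). There the groups overlapped, at 11.29 to 11.84 in mini-muscle and 11.46 to 12.32 in regular muscle. That probe set gave -0.16 and did not pass (adjusted p = 0.65 over all probe sets), and the mean of both was not called (-0.31, adjusted p = 0.065). Ndufaf3 differed in the opposite direction by 0.24 (95% interval 0.02 to 0.47) without passing (adjusted p = 0.11).

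Ndufaf1, which belongs to the assembly complex of the membrane arm, differed by -0.07 (95% interval -0.28 to 0.13). Ndufaf7, an assembly factor with methyltransferase activity, differed by -0.08 (-0.31 to 0.16). Neither passed.

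Outside the Nduf symbols, 12 further complex I assembly factors were measured, of which 1 rose and 1 fell, with a median of -0.11. Among all genes tested, 14.9% rose and 11.8% fell. Ecsit, a partner of Ndufaf1, rose by 0.39 (SE 0.10, adjusted p = 0.0069), and Timmdc1, a membrane arm factor, fell by 0.45 (SE 0.14, adjusted p = 0.024). Neither was called after median centring of the arrays.

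Promoters are shown for the called members whose groups did not overlap and that have an entry in the RefSeq table (GRCm38.p6). Each run holds 125 bases before the annotated start and 30 after it, read 5′ to 3′ on the strand of the gene, with capitals at the letters of the motifs named next. Ndufaf4 lies at chr4:24897958-24898112 (+ strand), Ndufaf5 at chr2:140170521-140170675 (+ strand) and Ndufv1 at chr19:4012726-4012880 (- strand).
Ndufaf4: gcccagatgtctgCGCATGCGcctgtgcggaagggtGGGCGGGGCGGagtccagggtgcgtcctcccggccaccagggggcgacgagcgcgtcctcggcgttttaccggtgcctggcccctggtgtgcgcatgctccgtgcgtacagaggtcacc
Ndufaf5: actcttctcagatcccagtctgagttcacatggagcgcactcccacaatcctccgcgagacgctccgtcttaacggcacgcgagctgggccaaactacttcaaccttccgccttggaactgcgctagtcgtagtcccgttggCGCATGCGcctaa
Ndufv1: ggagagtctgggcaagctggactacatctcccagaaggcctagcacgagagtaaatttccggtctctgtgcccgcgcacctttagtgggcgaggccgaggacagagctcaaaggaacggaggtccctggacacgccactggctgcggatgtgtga

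Letters bound by 5 factors of housekeeping and respiratory promoters were searched on both strands: CGCATGCG for NRF1, CCGGAAGT for GABPA, AAGGTCA for the estrogen-related receptors, AAGATGGC for YY1 and GGGCGG for SP1. The promoter of Ndufaf4 holds the NRF1 letters from 112 bases before the start and 2 overlapping SP1 matches at 89 and 84 bases before it. Ndufaf5 holds the NRF1 letters from base 18 after the start, and the run of Ndufv1 holds none of the 5. Over the full 300 bases, the NRF1 letters occur in 3 of the 39 members with a promoter entry (7.69%), the third being Ndufa8, and in 1.87% of all 32851 promoters. The YY1 letters occur in 7 of 39 (17.9%, against 2.75%) and the SP1 letters in 21 (53.8%, against 35.7%). The GABPA letters occur in 1 (2.56%, against 3.89%) and the receptor letters in 3 (7.69%, against 4.72%). A gene with 2 listed promoters counted once if either held the letters. These shares describe letters in a window and are not a measure of binding.

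Ndufa4 and Ndufa4l2 are paralogs of which Ndufa4 is a constitutive subunit now assigned to complex IV and Ndufa4l2 is known as a hypoxia-induced gene. Ndufa4 was at 15.66, 15.80 and 16.00 in mini-muscle and at 15.59, 15.76 and 15.89 in regular muscle, a difference of 0.07 (95% interval -0.08 to 0.22). Ndufa4l2 lay near the dim limit, at 8.06, 8.98 and 9.32 in mini-muscle and at 9.03, 9.55 and 9.80 in regular muscle, with overlap. It fell by 0.60 (SE 0.21, adjusted p = 0.045). This call was lost in 7 of 12 cases with 1 array left out, namely mini-muscle replicate 4, 5 or 6 or regular-muscle replicate 1, 4, 5 or 6 (-0.44 and adjusted p = 0.10 without mini-muscle replicate 5).

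Where a gene had several single-gene probe sets above the dim limit, they mostly gave like values. There were 21 such genes, and all probe sets of 15 had the same sign. The 6 with mixed signs were Ndufa5, Ndufab1, Ndufb2, Ndufs7, Ndufs8 and Ndufv2, of which none was called. The median range between probe sets of a gene was 0.08. The widest ranges were 0.41 for Ndufs8, 0.29 for Ndufaf4 and 0.22 for Ndufv1. The other 22 genes rested on 1 probe set above the limit.

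**Figure D3:**
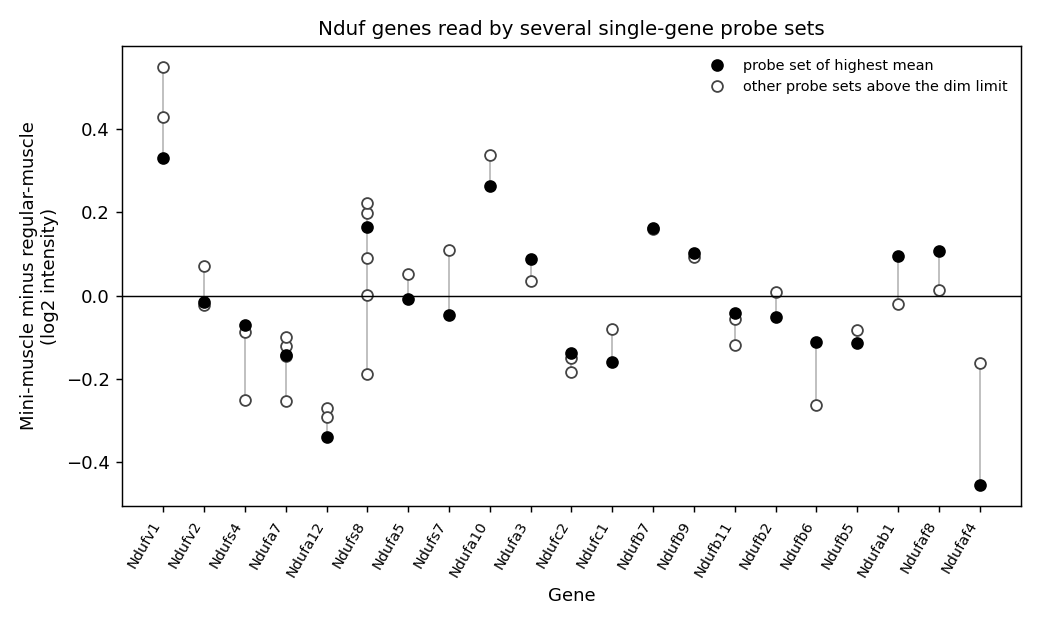
Difference between the groups (log2 intensity, vertical axis) at every single-gene probe set above the dim limit, for the 21 Nduf genes with more than 1. Filled points are the probe sets used; the 3 probe sets of Ndufv1 all lie above 0 and the 3 of Ndufa12 all lie below it, while those of Ndufaf4 are 0.29 apart.

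Within each group most subunits deviated in the same direction on some arrays. On mini-muscle replicate 2, 32 of the 33 subunits lay below their own mini-muscle mean, with a median deviation of -0.15, and on regular-muscle replicate 1, 30 of 33 lay below their regular-muscle mean (-0.14). On mini-muscle replicates 1, 3 and 4, 25, 27 and 27 lay above it. The median deviation of the members from their means over the 12 arrays was -0.15 to 0.10 on mini-muscle and -0.13 to 0.09 on regular-muscle arrays, so the ranges nearly coincided. The 2 low arrays also had the highest array medians of their groups, 275.2 and 274.4 intensity units against 211.9 to 250.4 on the others. The log2 ratio of the 3′ to the 5′ control probe set of beta-actin, a sign of RNA quality, was 0.02 on mini-muscle replicate 2 and -0.65, -0.73 and -0.76 on the high mini-muscle replicates 1, 3 and 4, with -0.44 and -0.23 on replicates 5 and 6. In regular muscle it was -0.01 on replicate 1, 0.02 on replicate 5, where the subunit median deviation was 0.02, and -0.61 to -0.20 on the other 4. The part of array median and RNA quality in the pattern was not tested. With both of the low arrays left out, a choice made after seeing the data, 2 members rose and 5 fell. That was 16.3% of the members, against 22.8% of all genes called. Ndufs1, Ndufb1 and Ndufa4l2 then lost their calls (adjusted p = 0.076, 0.068 and 0.062), while Ndufv3 passed.

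**Figure D4:**
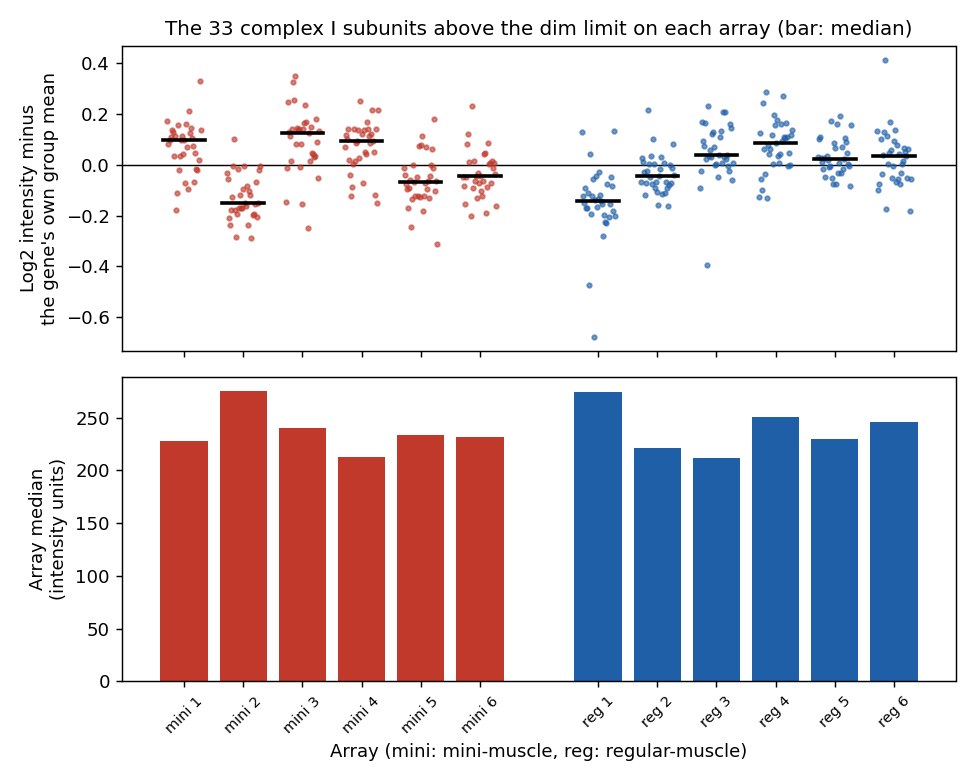
Top, log2 intensity of the 33 measured complex I subunits on each array minus the mean of the gene in its own group, with bars at the medians; bottom, the median intensity of each array. Mini-muscle replicate 2 and regular-muscle replicate 1 have the lowest subunit medians (-0.15 and -0.14) and the highest array medians (275.2 and 274.4 intensity units).

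Complexes II to V had medians of 0.01 to 0.08, against 0.03 for all genes tested, of which 14.9% rose and 11.8% fell. In complex II, which feeds electrons from succinate, 1 of 8 subunits and assembly factors rose and 1 fell (median 0.01), with the flavoprotein Sdha up by 0.30 and the assembly factor Sdhaf3 down by 0.45. In complex III 4 of 14 rose and 1 fell (median 0.08), including Uqcr11, Uqcrc2 and Uqcrq, up by 0.36, 0.27 and 0.37. In complex IV 2 of 12 rose, Cox8a by 0.43 and Cox6a1 by 0.48, and 0 fell (median 0.02). In complex V 3 of 16 rose and 0 fell (median 0.08), Atp5e by 0.39, Atp5d by 0.30 and Atp5a1 by 0.20. Differences between these lists and complex I were not tested. After quantile normalization 6 genes of complex III, 4 of complex IV and 5 of complex V were called higher, and the medians of the 3 complexes were 0.16, 0.11 and 0.14. After median centring 1 gene of complex III and 1 of complex V were called higher. Mitochondrially encoded subunits were not analysed here.

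The largest difference in the lists of the respiratory chain and its inputs was in another route by which electrons reach ubiquinone. Gpd2, the mitochondrial glycerol phosphate dehydrogenase, delivers electrons from cytosolic NADH to ubiquinone without complex I. It was at 11.39 to 12.04 in mini-muscle and at 13.13 to 13.81 in regular muscle, and fell by 1.77 (SE 0.12, adjusted p = 1.6e-08). Etfdh, which passes electrons from fatty acid oxidation, rose by 0.41 (adjusted p = 0.0053), and Sqor, the sulphide-oxidising enzyme, fell by 0.29 (adjusted p = 0.045). In all, 1 of 7 such genes rose and 2 fell (median 0.12), against 14.9% and 11.8% of all genes tested.

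A list of enzymes that supply NADH, exchange it between compartments or, in the case of Nnt, use it included 5 of 13 that rose. In that list 0 fell (median 0.16). Of all genes tested, 14.9% rose and 11.8% fell. The aspartate aminotransferases of the malate-aspartate shuttle, Got2 and Got1, rose by 0.74 (adjusted p = 1.2e-06) and 0.62 (adjusted p = 8.3e-05). Nnt, the transhydrogenase that uses NADH to make NADPH, rose by 0.74 (adjusted p = 9.9e-06). Ogdh and Dlst of the oxoglutarate dehydrogenase complex, named as the last of these 5 after their values were seen where the rule takes 3, rose by 0.41 and 0.38.

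**Figure D5:**
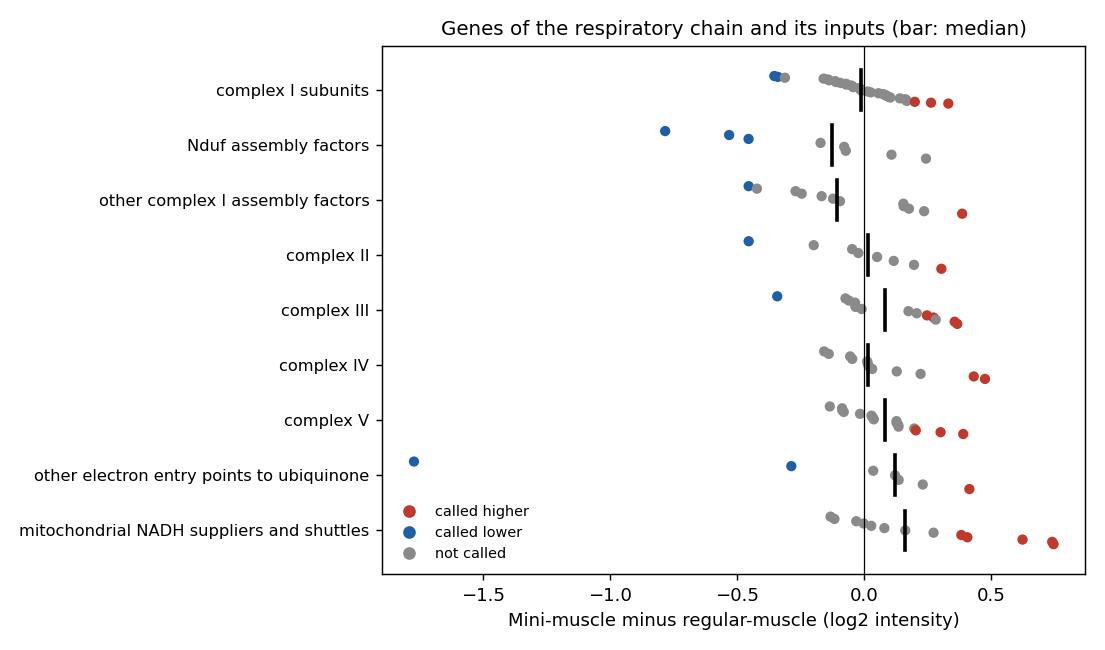
Difference between the groups (log2 intensity, horizontal axis) for each gene above the dim limit in complex I and in complexes II to V. Also shown are the lists of electron entry points and of enzymes that supply, exchange or use NADH. Bars mark the medians. The point farthest to the left is Gpd2 at -1.77, and the points farthest to the right are Nnt and Got2.

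Fibre-type and connective tissue markers moved with the groups. The mean log2 intensity of 8 skeletal muscle fibre markers was 16.77 to 17.04 in mini-muscle and 17.10 to 17.40 in regular muscle. Of these, Myh4 (-1.33), Pvalb (-0.41), Actn3 (-0.36) and Tnnt3 (-0.29) were lower and Myh1 (0.29) was higher. Acta1 (-0.08), Ckm (-0.14) and Mb (0.13) were not called, so the lower mean does not stand for fibre genes in general. The mean of 5 slow-fibre markers was 15.06 to 15.60 against 14.12 to 14.65, with 5 of 5 higher. Fibroblast markers were at 11.28 to 12.03 against 12.05 to 12.67, with 4 of 6 lower. Of the other marker lists, 1 of 4 endothelial genes rose, 1 of 2 measured macrophage genes fell and 1 of 2 adipocyte genes rose, and both erythroid genes and the Schwann cell gene lay below the dim limit. The part of fibre type and cell makeup in the Nduf differences was not tested, and in whole muscle fewer cells of a type and less RNA per cell cannot be told apart. The 3′ to 5′ log2 ratio was -0.19 to -0.09 in mini-muscle and -0.24 to -0.15 in regular muscle for Gapdh, and -0.76 to 0.02 and -0.61 to 0.02 for beta-actin.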

How the data were processed

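Log2 differences were computed from the intensities that the authors deposited, which are linear MAS5 probe set signals per the submitters' processing notes; the sources used here give neither MAS5 settings nor detection calls. The deposited intensity of every array has the same mean once the lowest and highest 2% of values are left out. The intensities of 45101 probe sets were taken to log2 with no offset, and 34958 probe sets with a single platform gene were reduced to 18194 genes by the highest mean. Genes below the median gene mean (8.56) were left out as dim. The groups were compared over 9097 genes with limma 3.58.1 in R 4.3.3 (lmFit, eBayes with an intensity trend, two-sided), with Benjamini-Hochberg adjustment over all of them and calls under 0.05. Adjusted p-values are from this fit unless another is named.

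Precision is limited by the number of arrays, 6 per group. Replicate numbers only name the arrays. The fit was tested on simulated data. The members, gene lists and rule for named genes were chosen with earlier results of these data known. The rule names all called members, the nuclear-encoded core subunits, the assembly factors named Nduf, Ndufa4 and Ndufa4l2, the 3 largest differences not called, members with another probe set called differently, and up to 3 called genes of each comparison list; members named beyond it were chosen after their values were seen. Lists are described by counts and medians, with no test. Alternatives covered the scaling between arrays, the offset, the dim filter, the choice of probe set, the trend, array weights and leaving out each array.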

Additional observations from a re-analysis of the deposited data

Results flagged for a closer look

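In 3 of the 40 groups of 6 arrays examined for the named members, 1 array stood apart from the others by more than the critical gap; chance alone gives about 5% of groups. Regular-muscle replicate 5 was high for Ndufaf6, at 11.98 against 10.89 to 11.30 on the other 5 arrays. Mini-muscle replicate 1 was high for Ndufb1, at 10.61 against 10.13 to 10.27. Regular-muscle replicate 1 was low for Ndufs3, at 14.55 against 15.32 to 15.39.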

How the results depend on the processing

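Of the 9 called members, 3 (Ndufv1, Ndufaf5 and Ndufaf6) were called under all 9 alternative settings and in all 12 cases with 1 array left out. Quantile normalization gave 6 members higher and 6 lower, 27.9% of members against 26.3% of all genes, so the order of these shares turned. It also turned without the dim filter (15.9% against 12.1%) and with p adjusted over all single-gene probe sets (13.6% against 11.1%). In both of these settings the background was 18194 genes, dim ones included. Among the 6065 brightest genes the order was kept, with 19% of 42 members against 35.3%. In the remaining settings the share of members was also the lower. Centring arrays on their medians gave 1 higher and 4 lower, 11.6% against 18.0%. When each gene took the average of its probe sets, 2 rose and 3 fell, 1543 of all genes were called, and Ndufa12 turned to 0.036 (adjusted p = 0.93), since its dim probe set enters that mean. Without 1 array, 2 to 4 members were higher and 5 to 7 lower. That average also lost the calls of Ndufa10 (adjusted p = 0.071), Ndufa4l2 (0.062) and Ndufaf4 (0.065). The calls of Ndufs1 and Ndufa4l2 were also lost without the dim filter (adjusted p = 0.069 and 0.093). Ndufb1 (0.054), Ndufs1 (0.091) and Ndufa4l2 (0.11) were lost when p was adjusted over all single-gene probe sets. Ndufs1 was lost without the intensity trend (0.086), and Ndufv3 passed with array weights (0.049). Without 1 array, 2 to 4 members were higher and 5 to 7 lower. The median difference of the members stayed between -0.06 and 0.02. No paired analysis was possible because the labels give no replicate numbers shared by the groups. Arrays whose signal lies near the dim limit, as for Ndufa4l2, limit what can be read from low values.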

Other observations

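Among 11 measured transcription factors and coactivators of respiratory chain genes, 1 rose and 0 fell (median 0.10). Over all genes tested the shares were 14.9% and 11.8%. Esrra, the estrogen-related receptor alpha, rose by 0.70 (SE 0.14, adjusted p = 8.3e-04), at 11.98 to 12.65 in mini-muscle and 11.32 to 12.13 in regular muscle. Nrf1 differed by 0.24 (adjusted p = 0.49) and the coactivator Ppargc1a by 0.06 (adjusted p = 0.80).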
